A study of Mus musculus with 60 samples.

Results

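The 8 phosphodiesterase genes described here, Pde10a, Pde1a, Pde1b, Pde2a, Pde4b, Pde4d, Pde7b and Pde8b, were taken by symbol from 47597 gene entries, 1 entry per gene. They were read in all 60 RNA-Seq libraries of a study of mouse huntingtin (Htt), the gene mutated in Huntington's disease. The mice were aged 3 months, with the strain given as c57BL-6N, and the libraries were labelled in 10 groups of 6, with 3 males and 3 females each. In each of cortex and striatum, +/+, Δ12/+ and Δ12/Δ12 mice belonged to the Δ12 line, whose Htt allele lacks a stretch of exon 12. The +/+ and KO/+ mice belonged to the KO line, a single founder line from the same Cas9 editing of embryonic stem cells in which a larger, imprecise deletion took away the splice donor. Both lines carry germline alleles, and the labels name no transgene or treatment. The study describes the mice of a group as littermates, 3 of each sex, so the libraries of a group are read as separate mice.

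Levels are in scaled FPKM, that is, the deposited FPKM (fragments relative to transcript length and to the mapped fragments of the library) divided by the library's median ratio to the geometric mean of all libraries. FPKM already accounts for transcript length, so levels can be compared between genes. Depth, estimated from the deposited interval bounds, was 12700000 to 27500000 fragments per library with a median of 16900000. The deposited interval of a member had a median half-width of 2.41% of the FPKM for Pde1b and 9.97% for Pde4b, and the widest was 46.1%, for Pde7b. The 10 most abundant entries held 28.3% to 92.3% of the summed FPKM of a library, which is why the libraries were scaled.

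Phosphodiesterases break down cAMP and cGMP, the second messengers made by adenylyl and guanylyl cyclases, and so set how long a signal through dopamine, adenosine or nitric oxide lasts in a neuron. Families differ in which nucleotide they prefer and in what regulates them: PDE1 enzymes are switched on by calcium and calmodulin, PDE2 enzymes by cGMP, while PDE4, PDE7 and PDE8 enzymes act on cAMP. PDE10A acts on both nucleotides and is known for its high level in the medium spiny neurons of the striatum.

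The 250 bases before the transcription start, taken from RefSeq for GRCm38.p6, are shown for Pde10a and Pde7b, which had the largest ratios between the sets of libraries described below, and for Pde1a and Pde4b. The last pair are the members whose windows held TGACG, one side of the palindromic cAMP response element. Capitals mark CGTCA, which is TGACG on the opposite strand, and each sequence reads 5′ to 3′ on the strand of the gene. The windows lie at chr17:8801495-8801744 (plus strand), chr10:20548329-20548578 (minus), chr2:80038903-80039152 (minus) and chr4:102421305-102421554 (plus).
Pde10a: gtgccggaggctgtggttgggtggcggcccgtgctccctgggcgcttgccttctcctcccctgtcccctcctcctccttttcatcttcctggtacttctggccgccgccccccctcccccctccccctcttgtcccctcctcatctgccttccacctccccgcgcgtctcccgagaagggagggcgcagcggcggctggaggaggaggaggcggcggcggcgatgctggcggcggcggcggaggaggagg
Pde7b: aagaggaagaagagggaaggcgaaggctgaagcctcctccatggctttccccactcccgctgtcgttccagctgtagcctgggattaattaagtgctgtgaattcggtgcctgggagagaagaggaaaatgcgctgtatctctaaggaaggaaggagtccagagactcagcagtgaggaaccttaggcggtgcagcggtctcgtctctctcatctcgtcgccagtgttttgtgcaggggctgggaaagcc
Pde1a: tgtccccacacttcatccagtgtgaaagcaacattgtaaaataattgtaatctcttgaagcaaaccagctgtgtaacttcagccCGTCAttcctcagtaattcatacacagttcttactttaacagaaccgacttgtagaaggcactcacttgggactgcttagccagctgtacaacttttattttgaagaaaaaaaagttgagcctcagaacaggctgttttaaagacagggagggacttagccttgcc
Pde4b: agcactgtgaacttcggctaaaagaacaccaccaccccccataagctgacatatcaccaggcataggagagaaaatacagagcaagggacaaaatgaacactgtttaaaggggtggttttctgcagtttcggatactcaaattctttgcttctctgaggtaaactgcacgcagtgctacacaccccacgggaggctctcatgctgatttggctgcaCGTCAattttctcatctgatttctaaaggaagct
All 8 genes had a window, 25 windows in all. The full element, TGACGTCA, was in 0 of the 25, against 1.55% of 32851 promoter windows of the same length in the annotation. Its 5-letter side TGACG, which lies within the full element and was searched on both strands, was in 2 of the 25 windows (8.0%), against 17.8% of all windows. It began 166 bases before the start in the Pde1a window and 34 bases before it in the Pde4b window. The Pde10a window shown was 72.8% G and C, the gene's other window (chr17:8849735-8849984) 56.0% and the Pde7b window 55.2%, against a median of 52.4% over all windows. These matches are descriptions of letters and not sites shown to be bound.

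The labels were first read against the transcripts. Slc17a7, which encodes the vesicular glutamate transporter of cortical excitatory neurons, divided the libraries into 30 cortex-like ones (121 to 234 FPKM) and 30 striatum-like ones (4.81 to 64.8 FPKM), with a dividing value of 100 FPKM. All 24 libraries of the KO line and the 6 libraries labelled female of Δ12/Δ12 were striatum-like. All +/+ and Δ12/+ libraries of the Δ12 line and the 6 labelled male of Δ12/Δ12 were cortex-like. The tissue label thus matched the set in 30 of 60 libraries, and the labelled sex matched the sex-linked transcripts in 30 of 60. Markers of medium spiny neurons separated the sets too, with Drd2 at 0.0 to 15.9 scaled FPKM in cortex-like and 34.8 to 71.3 in striatum-like libraries, and the cortical gene Emx1 at 4.33 to 9.14 and 0.0351 to 1.34. Emx1 was the only 1 of the 6 cortical markers read that did not overlap between the sets. Cux2 had the higher median in striatum-like libraries (5.16 against 3.9), and Slc17a6, with the lower median there (3.02 against 5.34), reached 16.1 in the striatum-like set and 7.74 in the cortex-like set. Groups below keep their labels. Since the sets were defined from measured values, their levels are a description with no test.

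Pde10a, at chr17:8525372-8986648 (ENSMUSG00000023868), showed the widest separation of the 8 genes. It had a lowest, median and highest level of 4.27, 6.55 and 54.6 scaled FPKM in cortex-like libraries, and 135, 191 and 316 in striatum-like ones, so the medians differed 29.1-fold. Pde7b (chr10:20398004-20725078), a cAMP-specific enzyme, followed with 2.36, 5.50 and 23.5 against 48.7, 65.7 and 84.5, a ratio of 11.9. Neither gene overlapped between the sets.

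Pde1b (chr15:103503298-103530052), the calmodulin-dependent enzyme known for its high striatal level, was the most abundant member in striatum-like libraries. It had a lowest, median and highest level of 170, 236 and 328 scaled FPKM there, against 25.1, 31.4 and 93.3 in cortex-like libraries. Pde2a (chr7:101421691-101512829), which cGMP stimulates, was at 70.8, 105 and 138 against 16.3, 23.2 and 48.7, and Pde8b (chr13:95024454-95250336), a cAMP-specific enzyme of high affinity, at 22.5, 29.4 and 43.7 against 10.3, 14.4 and 18.2. The medians of these 3 genes differed 7.52-fold, 4.54-fold and 2.04-fold, again without overlap.

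Pde1a (chr2:79834453-80129458), the other calmodulin-dependent member, went the opposite way. It was at 25.2, 32.5 and 39.0 scaled FPKM in cortex-like libraries and at 4.33, 8.35 and 14.5 in striatum-like ones, 3.89-fold higher by the medians in the cortex-like set. The cAMP-specific Pde4b (chr4:102087543-102607259) ranged from 28.4 to 60.6 in cortex-like and 32.9 to 49.4 in striatum-like libraries, and Pde4d (chr13:108449948-109953461) from 11.1 to 19.1 and 13.1 to 19.0. Both PDE4 genes overlapped between the sets. In all, 6 of the 8 genes did not overlap, and 5 on the FPKM as deposited. The share of all genes without overlap between the sets was not computed, so this count cannot be read as particular to these genes.

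**Figure D1:**
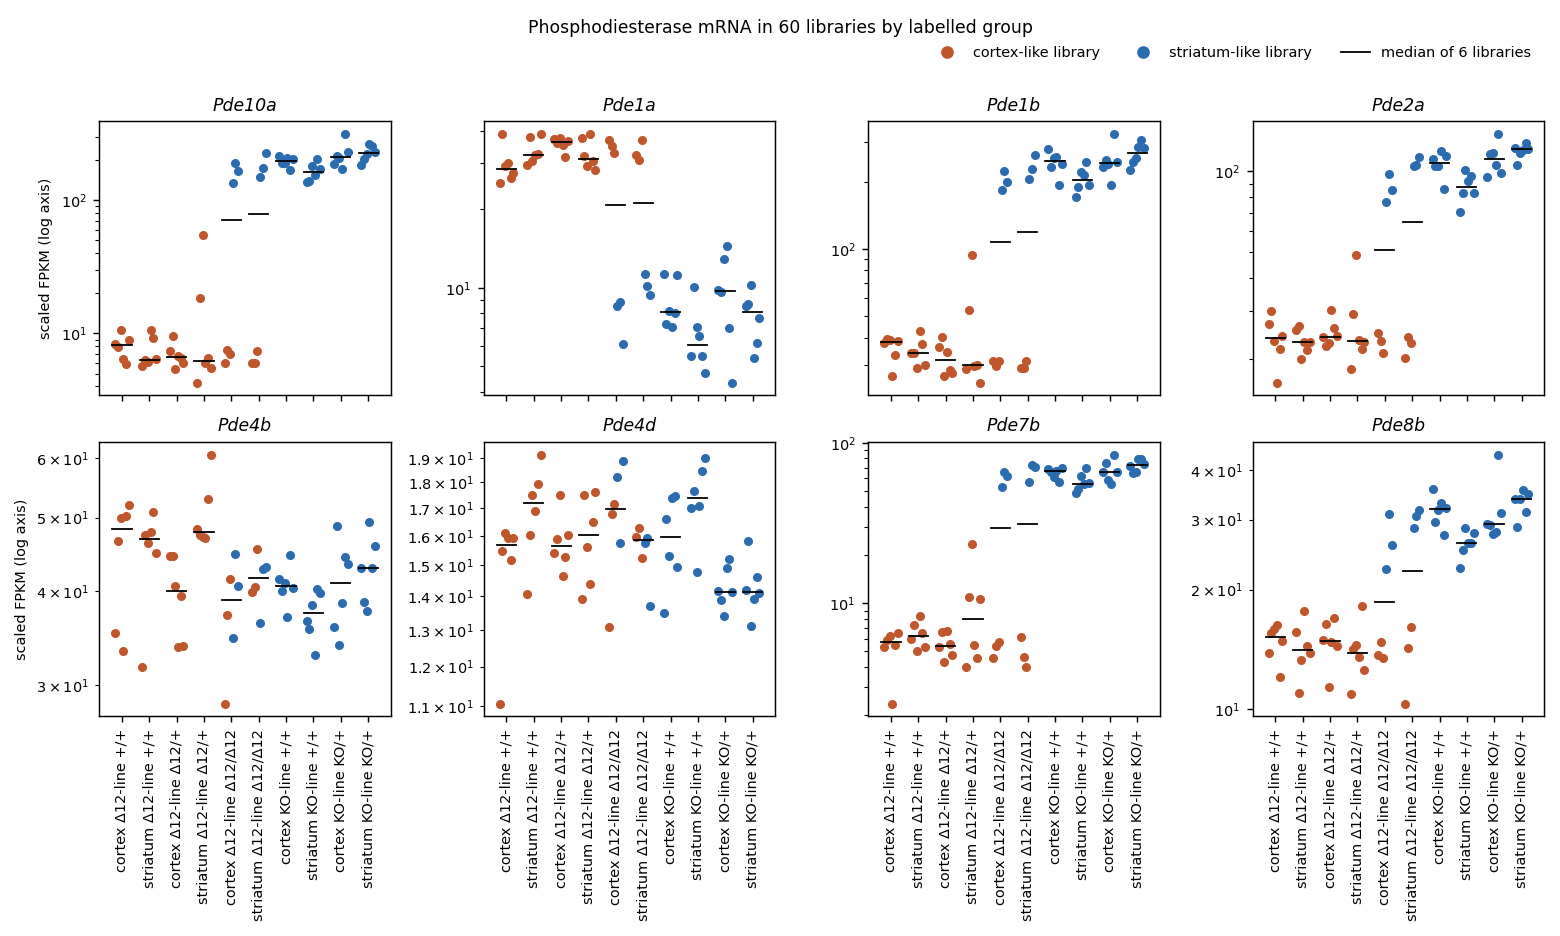
Scaled FPKM (log axis) of the 8 phosphodiesterase genes in each of the 60 libraries, by labelled group, coloured by the Slc17a7-defined set, with a line at the median of each 6. Pde10a, Pde7b, Pde1b, Pde2a and Pde8b were higher in striatum-like libraries and Pde1a lower, and the Δ12/Δ12 groups hold libraries of both sets.

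The order of the genes also differed. In striatum-like libraries it ran Pde1b, Pde10a, Pde2a, Pde7b, Pde4b, Pde8b, Pde4d and Pde1a, and each gene was above the next within all 30 libraries. Between libraries the ranges of neighbours overlapped, except those of Pde8b and Pde4d. In cortex-like libraries it ran Pde4b, Pde1a, Pde1b, Pde2a, Pde4d, Pde8b, Pde10a and Pde7b. There, Pde1a was above Pde1b in 19 of 30 libraries and Pde4d above Pde8b in 19, so those neighbours were close, while Pde1b was above Pde2a and Pde2a above Pde4d in all 30.

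The summed level of the 8 genes had a lowest, median and highest value of 147.5, 177.8 and 326.7 scaled FPKM in cortex-like libraries and 509.1, 705.7 and 976.5 in striatum-like ones. Pde1b and Pde10a together made up 16.7% to 45.3% of this sum in the cortex-like set and 58.3% to 65.9% in the striatum-like set. The medians for Pde4b were 24.4% and 5.8%, and for Pde1a 19.0% and 1.21%. Among the calmodulin-dependent pair, the ratio of Pde1b to Pde1a had a median of 0.95 in cortex-like and 28.1 in striatum-like libraries. Pde2a kept the most similar share, with medians of 12.9% and 14.8%.

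**Figure D2:**
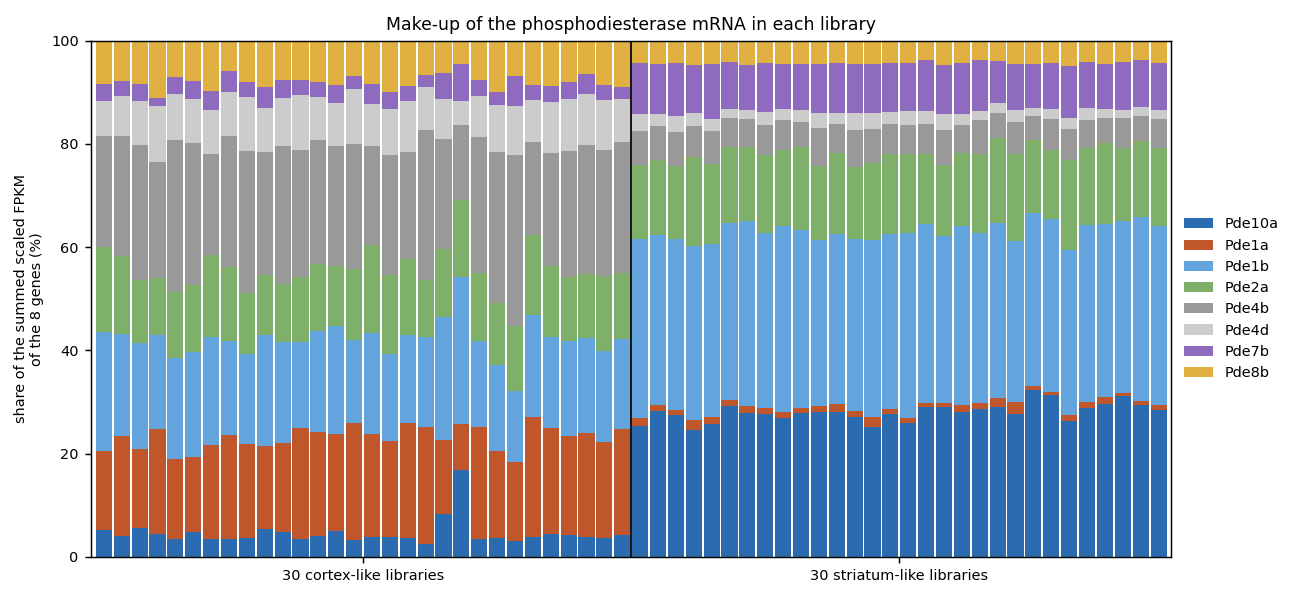
Share of each gene in the summed scaled FPKM of the 8 phosphodiesterases (%, stacked bars, 1 bar per library), with the 30 cortex-like libraries to the left of the 30 striatum-like ones. The median share of Pde10a is 3.85% in the cortex-like and 28.0% in the striatum-like set and that of Pde1b 18.4% and 33.8%, while Pde4b and Pde1a take smaller shares in the striatum-like set.

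Genes were tested between labelled groups with limma on log2(scaled FPKM + 0.5), labelled sex being a covariate, and p-values were adjusted by Benjamini and Hochberg's method over all genes tested, at a threshold of 0.05. Comparisons of wild-type mice between the lines came first, since the +/+ libraries of the KO line were striatum-like and those of the Δ12 line cortex-like under either tissue label. In libraries labelled striatum, 7 of the 8 phosphodiesterases differed. Pde10a was higher in the KO line (165 ± 25.9 against 7.4 ± 2.05 scaled FPKM, mean ± SD, n = 6 each), with ranges of 138 to 205 and 5.68 to 10.7 and a log2 fold change of 4.41 (SE 0.13, limma adjusted p = 1.12e-10). Pde7b (3.07), Pde1b (2.56), Pde2a (1.89) and Pde8b (0.85) were higher too, and Pde1a (-2.30) and Pde4b (-0.25, limma adjusted p = 0.0385) lower. For Pde4b the sign turned with quantile normalization, to 0.35 with limma adjusted p = 0.00481. Pde4d had a log2 fold change of 0.04 with limma adjusted p = 0.646, and -0.28 with adjusted p = 0.0152 on the FPKM as deposited, where all 8 passed. Quantile normalization also called all 8 and gave larger fold changes for Pde10a (5.76), Pde1b (4.29) and Pde2a (2.75).

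In libraries labelled cortex, 6 of the 8 differed between the +/+ groups. Pde10a (4.55), Pde7b (3.55), Pde1b (2.75), Pde2a (2.16) and Pde8b (1.07) were higher in the KO line and Pde1a (-1.70) lower, on the log2 scale. Pde4b stood at -0.11 and Pde4d at 0.09, with limma adjusted p of 0.446 and 0.447. With quantile normalization all 8 were called, Pde10a at 6.27, Pde1b at 4.73, Pde2a at 3.31 and Pde4b, with the sign turned, at 0.55. Of all genes tested, 79.3% were called in the comparison labelled striatum and 68% in that labelled cortex, so calls among the phosphodiesterases were little more frequent than among genes at large. The groups did not overlap for 6 of the 8 genes under either label, against 62.6% and 51.1% of all genes. Depth moved with the line, at 16700000 to 21900000 fragments against 13100000 to 17400000 (labelled striatum) and 17300000 to 24300000 against 12700000 to 16100000 (labelled cortex). So did markers, since all 8 of medium spiny neurons and all 5 of choroid plexus were higher in the KO line under either label, and 4 of 6 cortical markers lower. The other 2 cortical markers, Slc17a6 (0.83) and Cux2 (0.81), were higher in the KO line under the striatum label. Of 4 oligodendrocyte markers 3 were higher under either label (medians of 1.55 and 1.42), with a summed level of 891 to 1070 scaled FPKM against 299 to 396 under the striatum label. Of 5 endothelial markers 4 were higher under either label, while Cldn5 was lower and the summed level was 29.6 to 34.4 against 29.8 to 57.0 under the striatum label. The line, the set and whatever else came with the line cannot be told apart here. In bulk tissue, fewer cells of a type and less RNA per cell cannot be told apart either.

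The rest of the cyclic nucleotide pathway was read from 4 lists. Between the +/+ groups labelled striatum, 6 of 11 other phosphodiesterases tested were higher in the KO line and 4 lower, with cGMP-specific Pde5a furthest down (-3.94). Of 13 cyclases, 8 were higher and 3 lower, led by Adcy5 (4.52), the main adenylyl cyclase of the striatum. Of 14 effectors of cAMP and cGMP, 8 were higher and 4 lower, with Ppp1r1b (2.76), which encodes the phosphatase inhibitor DARPP-32, at one end and the protein kinase A subunit gene Prkar1b (-1.99) at the other. Of 12 G protein and calmodulin genes, 6 were higher and 3 lower, among them Gng7 (3.95) and Gnal (3.09), whose products couple dopamine and adenosine receptors to the cyclase. The medians of the 4 lists were 0.27, 0.61, 0.35 and 0.37 on the log2 scale, against 0.05 over all genes tested. Of all genes tested, 79.3% were called in this comparison, so these counts cannot be read as particular to the pathway.

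Tissue labels were then compared within the +/+ mice of each line, which share these libraries with the line comparisons. In the KO line, 0 of the 8 genes passed (limma, 6 at an unadjusted p under 0.05), and log2 fold changes of labelled striatum over labelled cortex ran from -0.42 for Pde1a to 0.13 for Pde4d. Pde10a was 165 ± 25.9 against 196.2 ± 16.9 scaled FPKM (mean ± SD, n = 6 each), lower and not higher under the striatum label. In the Δ12 line, 0 of the 8 passed (limma, 0 at an unadjusted p under 0.05), with values from -0.12 for Pde10a to 0.29 for Pde7b. Of all genes, 0.0128% and 0.0132% were called, and 1966 of 15669 and 796 of 15127 were at an unadjusted p under 0.05 (limma).

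KO/+ was compared with +/+ in the KO line to ask what loss of an Htt copy does. In libraries labelled striatum, 6 of the 8 genes differed, 5 higher and 1 lower in KO/+, where 8.17% of all genes were called. Pde2a was at 106, 121 and 127 scaled FPKM (lowest, median, highest) in KO/+ and 70.8, 87.7 and 102 in +/+, and its log2 fold change was 0.45 (SE 0.08, limma adjusted p = 0.00637). Pde8b was at 28.7, 33.9 and 35.6 against 22.6, 26.2 and 28.65, with 0.33 (SE 0.06, limma adjusted p = 0.00935). These 2 genes did not overlap between the groups, Pde8b by a narrow margin (28.68 against 28.65), and no overlap was found for 4.58% of all genes.

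Pde10a was at 185, 227 and 266 scaled FPKM in KO/+ and 138, 164 and 204 in +/+, with a log2 fold change of 0.47 (SE 0.09, limma adjusted p = 0.00884). Pde1b was at 226, 268 and 307 against 170, 203 and 245, with 0.38 (SE 0.08, limma adjusted p = 0.0114), and Pde7b at 64.8, 73.1 and 79.2 against 48.7, 55.7 and 70.0, with 0.34 (SE 0.07, limma adjusted p = 0.0151). The highest +/+ libraries reached into the KO/+ range for these 3 genes. Pde4d was lower, at 13.1, 14.2 and 15.8 against 14.8, 17.4 and 19.0, with -0.27 (SE 0.06, limma adjusted p = 0.0216). Pde4b (42.9 ± 4.39 against 37.2 ± 2.77, mean ± SD) and Pde1a (7.77 ± 1.79 against 6.57 ± 1.93) had log2 fold changes of 0.20 and 0.24 and did not pass, with limma adjusted p of 0.0868 and 0.343.

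**Figure D3:**
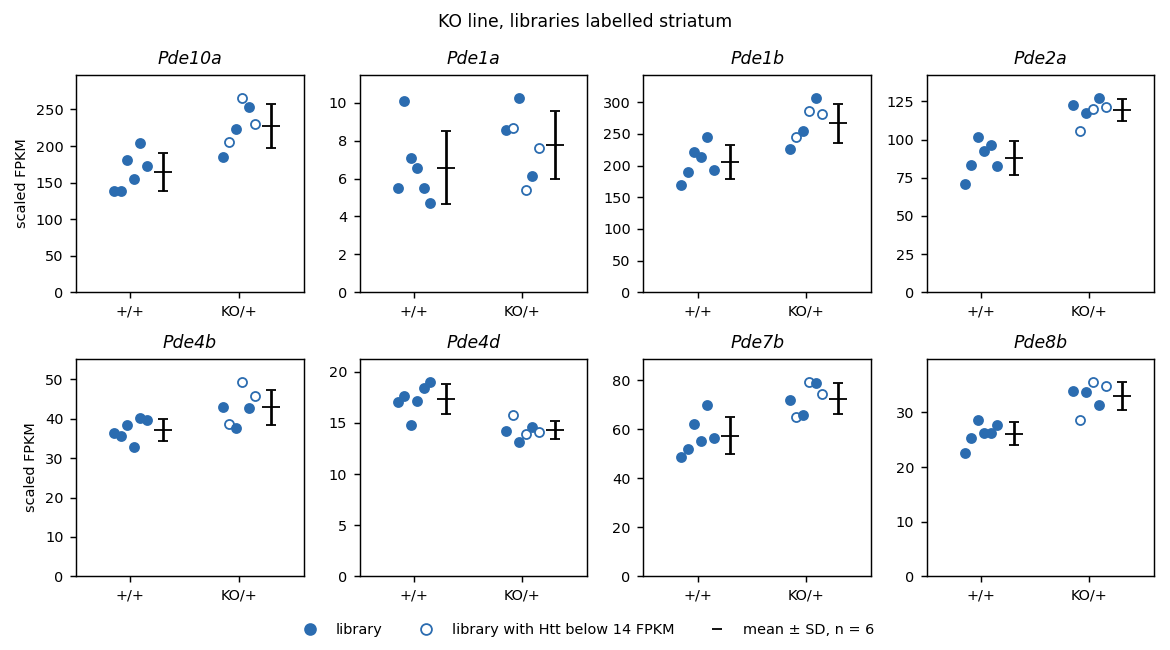
Scaled FPKM of the 8 genes in the 12 KO-line libraries labelled striatum (points), with the mean and SD of each group beside them and open points for libraries with Htt below 14 FPKM. Pde2a and Pde8b do not overlap between KO/+ and +/+, and 3 of the 6 KO/+ libraries have open points.

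The number of calls depended on the scaling. On the FPKM as deposited, the signs of all 8 log2 fold changes were kept, with Pde10a at 0.37, Pde2a at 0.35, Pde1b at 0.28, Pde7b at 0.25, Pde8b at 0.24 and Pde4d, larger in size than before, at -0.36. On that scale 0 of the 8 passed (limma, 6 at an unadjusted p under 0.05), with adjusted p from 0.0501 for Pde4d to 0.729 for Pde1a. Of all genes, 2.25% were called on that scale, against 8.17% in the main fit. How many of all genes were at an unadjusted p under 0.05 on that scale was not counted. Under quantile normalization 6 of the 8 passed again, where 7.77% of all genes were called. Leaving out a library gave 5 or 6 of the 8, with 4.83% to 9.13% of all genes called. Pde4d was the gene lost, with limma adjusted p of 0.0548 without +/+ female 3 and 0.0521, 0.0501 and 0.0504 without KO/+ female 1, 2 and 3.

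Other transcripts moved in the same libraries. All 8 markers of medium spiny neurons were higher in KO/+ (limma, median log2 fold change 0.45), and their summed level was 987 to 1320 scaled FPKM against 743 to 930. All 4 oligodendrocyte markers measured were lower (median -0.41), with Mag, a myelin gene, at -0.44 and a summed level of 733 to 825 against 891 to 1070. Of 5 astrocyte markers 1 was lower (Aqp4, -0.58), and of 4 ependymal markers 1 was higher. Slc17a6, from the cortical list, was lower too (-2.54), while the 5 cortical markers tested had a median of 0.70. The cortical list as a whole was thus not lower. Of the 5 markers each of microglia, choroid plexus and endothelium, 0 were called. Depth was alike, with medians of 18300000 fragments in KO/+ and 18500000 in +/+. The part of these markers in the phosphodiesterase differences was not tested.

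Among pathway genes in the same comparison, 1 of 10 other phosphodiesterases was called, Pde8a, a cAMP-specific relative of Pde8b that was lower (-0.34, limma adjusted p = 0.00624). Of 14 cyclases, Adcy5 (0.41) and the guanylyl cyclase subunit gene Gucy1b3 (0.29) were higher and Adcy8 (-0.93) lower. Of 14 effectors, Ppp1r1b (0.52) was higher and Prkar2a (-0.39), a protein kinase A subunit gene, lower. Of 12 G protein and calmodulin genes 4 were higher and 2 lower, with Gng7 (0.49) and Gnal (0.35) up and the stimulatory alpha subunit gene Gnas (-0.49) and Gnai1 (-0.24) down. List medians were 0.13, 0.01, -0.04 and 0.11 on the log2 scale, against 0.02 over all genes, of which 8.17% were called.

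In libraries labelled cortex, which were striatum-like by their transcripts, 0 of the 8 genes differed between KO/+ and +/+ (limma, 1 at an unadjusted p under 0.05), where 0.114% of all genes were called. Log2 fold changes ran from -0.14 for Pde4d (SE 0.06, limma adjusted p = 0.312) to 0.15 for Pde10a, and on the FPKM as deposited from -0.30 to -0.02, all below 0. Pde10a was at 173, 212 and 316 scaled FPKM in KO/+ against 169, 197 and 216 in +/+, with overlap. The KO/+ effect was tested for a difference between the labelled tissues, and 0 of the 8 genes passed (limma, 4 at an unadjusted p under 0.05). The largest such difference was that of Pde2a, at 0.38 (SE 0.13, limma adjusted p = 0.314). None of the genes tested was called there (0%), with 1841 at an unadjusted p under 0.05. Libraries under both labels were striatum-like, so this test cannot decide whether the KO/+ effect differs between cortex and striatum.

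Htt itself was at 11.6 to 16.8 FPKM in libraries labelled KO/+ striatum and 15.4 to 18.1 in +/+, and at 12.0 to 17.3 and 15.7 to 17.7 in those labelled cortex. In each labelled tissue 3 of the 6 KO/+ libraries lay below 14 FPKM and the rest at 15.1 FPKM or above, so Htt differed among libraries with the same label. Reads over the deletion were not examined, so this does not show which libraries carry the KO allele. These are FPKM as deposited, and on scaled values the division was narrower. The highest of the 6 low libraries was then 15.72 (KO/+ male 1 labelled cortex), the lowest other 16.56 (+/+ male 1 labelled cortex). From the lowest Htt upwards, Pde10a was at 204.9, 265.9, 230.5, 216.8, 315.9 and 187.2 scaled FPKM in the 6 libraries below 14 FPKM, against 138.1 to 253.7 in the other 18 KO-line libraries. The 2 highest Pde10a levels of the line were in low-Htt libraries, while the other 4 lay within the range of the rest.

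The other genes overlapped as well. Pde1b ranged from 231 to 328 scaled FPKM in the low-Htt libraries, from 194 to 307 in the other 6 labelled KO/+ and from 170 to 307 in all 18 others. The corresponding ranges were 28.7 to 43.7, 27.7 to 33.9 and 22.6 to 35.8 for Pde8b, and 95.3 to 138, 98.3 to 127 and 70.8 to 127 for Pde2a. For Pde7b they were 64.8 to 84.5, 55.3 to 78.9 and 48.7 to 78.9. Pde4d and Pde1a showed the same, with Pde4d at 13.9 to 15.8 in the low-Htt libraries and 13.1 to 14.9 in the other KO/+ ones. For Pde4b the ranges were 35.9 to 49.4, 33.9 to 43.4 and 32.9 to 44.6. They overlapped too, though the low-Htt median of Pde4b, 45.1, lay above the highest of all 18 others. Thus 0 of the 8 genes separated the low-Htt libraries from the others, and the low-Htt KO/+ libraries overlapped with the KO/+ libraries of higher Htt for each of the 8. How many of all genes separate these libraries was not counted. Since Htt picked these libraries, their levels are a description with no test.

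**Figure D4:**
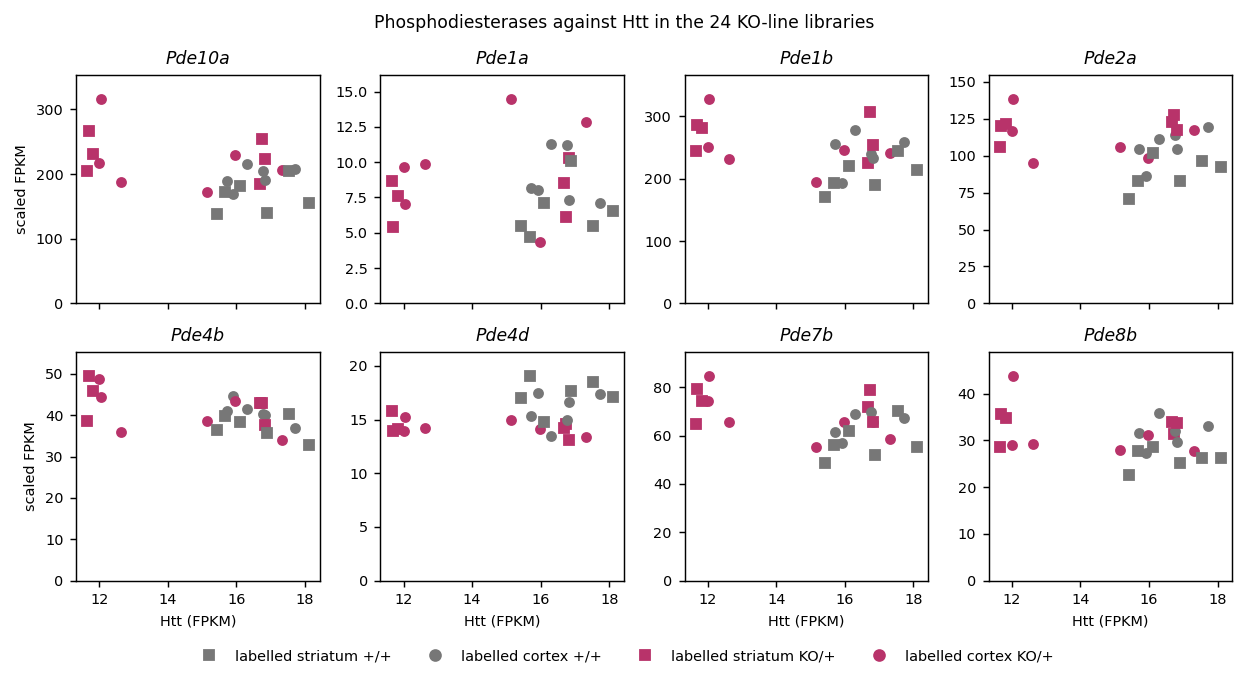
Scaled FPKM of the 8 genes against Htt (FPKM) in the 24 KO-line libraries, with squares for labelled striatum, circles for labelled cortex, grey for +/+ and colour for KO/+. The 6 libraries left of 14 FPKM overlap in every panel with the 18 to the right.

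In the Δ12 line, the comparisons with +/+ share the +/+ libraries. Labelled striatum gave 4 calls for Δ12/Δ12, where 28.7% of all genes were called. Pde10a was at 6.03, 5.96 and 7.41 scaled FPKM in the libraries labelled male and 150, 174 and 225 in those labelled female, against 5.68 to 10.7 in +/+, with a log2 fold change of 2.2 (SE 0.65, limma adjusted p = 0.0365). The Δ12/Δ12 values thus fell into 2 clusters by labelled sex, which are also the 2 sets. Pde1b (1.27), Pde2a (1.07) and Pde1a (-0.83) passed too, with limma adjusted p of 0.0467, 0.0476 and 0.0466. Pde7b (1.47) and Pde8b (0.49) did not, with limma adjusted p of 0.0592 and 0.0678.

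Pde1a had the mirror image, at 32.4, 30.9 and 37.0 scaled FPKM in the Δ12/Δ12 libraries labelled male and 11.3, 10.2 and 9.38 in those labelled female. Pde4b, at 36.3 to 45.4 over all 6, and Pde4d, at 13.7 to 16.3, showed no such clusters, with log2 fold changes of -0.11 and -0.12. With the Slc17a7-defined set as a covariate, 0 of the 8 passed (limma), and the fold changes of Pde1b, Pde2a and Pde7b turned to -0.11, -0.10 and -0.29 and that of Pde1a to 0.04. The count was also 0 without the sex covariate, with no filter on low values and with a replicate block. Of all genes, 0.0582%, 5.34% and 0.0323% were called in those fits, in that order. With the set as covariate 0.123% were called, against 28.7% in the main fit. The count of members was likewise 0 when any labelled female library of either group was left out, that is +/+ or Δ12/Δ12 female 1, 2 or 3. Without +/+ female 1 or female 2, 0.2% or 0.142% of all genes were called. Pde10a was at the cortex-like level both in the Δ12/Δ12 libraries labelled male and in the +/+ libraries labelled female (6.40 to 10.65 scaled FPKM). In this comparison the striatum-like set coincided with the Δ12/Δ12 libraries labelled female, so the set and that combination of labels cannot be told apart.

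In libraries labelled cortex, Δ12/Δ12 had the same clusters. Pde10a was at 6.00, 7.51 and 7.03 scaled FPKM in those labelled male and 135, 191 and 167 in those labelled female, against 5.90 to 10.6 in +/+. Here 0 of the 8 genes passed (limma, 5 at an unadjusted p under 0.05), where 0.79% of all genes were called, with Pde7b nearest (1.73, limma adjusted p = 0.0744). At an unadjusted p under 0.05 (limma) were 6003 of all 15696 genes tested. Without +/+ male 2, Pde7b passed (1.95, limma adjusted p = 0.0438), the 1 of 8 to do so in a fit that called 3994 of 15710 genes (25.4%). The effect of Δ12/Δ12 was tested for a difference between the labelled tissues, with 0 of the 8 genes called (limma, 0 at an unadjusted p under 0.05) and 0% of all genes, 438 of them at an unadjusted p under 0.05. Under either label the Δ12/Δ12 libraries were of both sets, so this test does not compare cortex with striatum.

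For Δ12/+ labelled striatum, 0 of the 8 genes passed (limma, 0 at an unadjusted p under 0.05), where 0.00663% of all genes were called. Pde10a was at 4.27, 6.25 and 54.6 scaled FPKM (lowest, median, highest) against 5.68, 6.35 and 10.7 in +/+, and its log2 fold change of 0.45 (SE 0.52) came with the library male 3. That library also had the highest Pde1b (93.3), Pde2a (48.7) and Pde7b (23.5) of all cortex-like libraries and the highest summed level of the medium spiny neuron markers among them (365 scaled FPKM, against a median of 102). Its Slc17a7, 121 FPKM, was the lowest of the cortex-like set. Without it, the log2 fold changes of Pde10a, Pde1b, Pde2a and Pde7b were -0.03, -0.07, -0.01 and 0.04.

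For Δ12/+ labelled cortex, 0 of the 8 genes passed (limma, 1 at an unadjusted p under 0.05), where 0.053% of all genes were called. Log2 fold changes ran from -0.19 for Pde10a to 0.28 for Pde1a, which was at 31.7, 36.2 and 37.7 scaled FPKM against 25.2, 28.4 and 38.9. With sex taken from the sex-linked transcripts, a covariate chosen after seeing the data, Pde7b (1.06, limma adjusted p = 0.00599) and Pde2a (0.60, limma adjusted p = 0.0467) passed, while 3067 of 15095 genes (20.3%) were called in that fit. By those transcripts 0 of the 6 Δ12/+ and 5 of the 6 +/+ libraries were female, so that covariate nearly coincided with the genotype. The Δ12/+ effect did not differ detectably between the labelled tissues, with 0 of the 8 genes called (limma, 1 at an unadjusted p under 0.05) and 0% of all genes, 972 of them at an unadjusted p under 0.05.

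**Figure D5:**
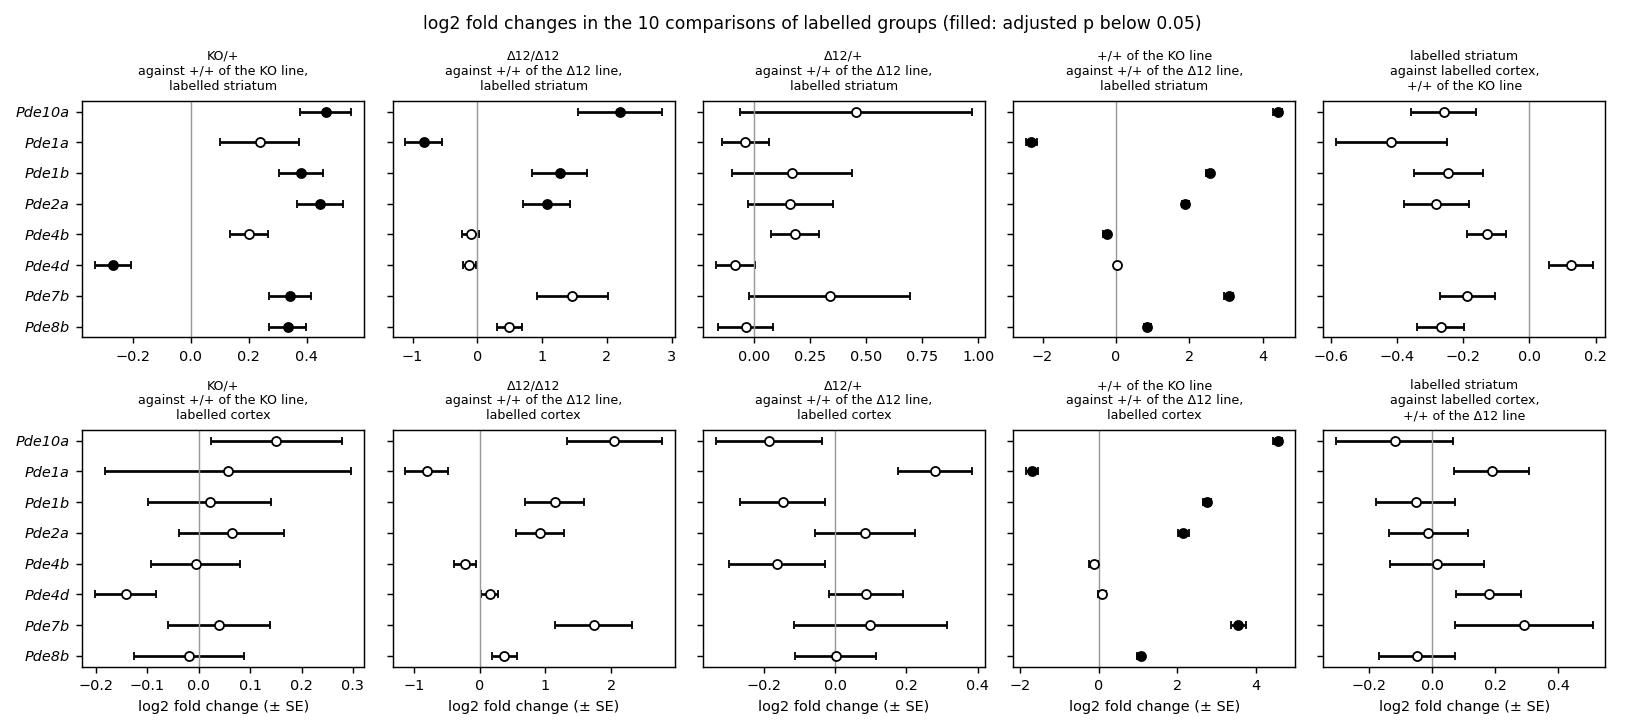
Log2 fold changes (± SE) of the 8 genes in the 10 comparisons of labelled groups, filled where the limma adjusted p is below 0.05, with a separate horizontal axis per panel. Calls lie in 4 panels: KO/+ and Δ12/Δ12 labelled striatum, and the 2 comparisons between the lines.

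Within the striatum-like set, 5 members varied together. Over its 30 libraries, Pearson's r of the log2 levels of Pde10a was 0.934 with Pde1b, 0.874 with Pde7b, 0.841 with Pde8b and 0.822 with Pde2a. It was 0.607 with Pde4b, -0.143 with Pde1a and -0.59 with Pde4d. Within the cortex-like set the r of Pde10a with Pde1b was 0.947, with a Spearman's rho of 0.782, and that with Pde2a 0.727 with a rho of 0.293. In that set Pde10a reached 54.6 scaled FPKM in Δ12/+ male 3 labelled striatum, against a median of 6.55. The summed level of the medium spiny neuron markers ranged from 697 to 1370 in the striatum-like set, and its part in these correlations was not tested. The correlations were not set against those of other gene pairs. The libraries share groups, depth and base composition, so these correlations are descriptions with no test.

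Genes most like each member were the 3 with the highest r among 8428 expressed genes in the striatum-like set, or 8439 in the cortex-like set for members whose median was higher there, over 30 libraries each. Pde1b went with Adcy5 (r = 0.971, rho = 0.939), Smpd3 (0.97) and Kcnab1 (0.96), and Pde10a with the calcium channel subunit gene Cacna2d3 (r = 0.95, rho = 0.956), the potassium channel subunit gene Kcnab1 (0.938) and the calcium sensor gene Hpca (0.938). Pde2a went with Sipa1l1 (0.956), Ppp2r2c (0.955) and Kcnj4 (0.954). Pde7b went with Zswim6 (0.926), Lingo3 (0.915) and Dgki (0.901), and Pde8b with Bcr (0.908), Syndig1l (0.903) and the transcription factor gene Meis2 (0.895). These changed little when the 2 libraries farthest from the median were left out, the lowest r being 0.837, for Pde8b with Meis2.

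For Pde1a, Pde4b and Pde4d, the members looked up in the cortex-like set, the highest r was lower than for the members above. These are different genes, so the sets themselves are not compared. Pde1a went with Hccs (r = 0.806, rho = 0.744), Gpbp1 (0.79) and Dhx36 (0.781), and Pde4b with Ndufaf2 (r = 0.784, rho = 0.729), Specc1 (0.763) and Focad (0.753). Pde4d went with Plxdc2 (r = 0.718, rho = 0.537), Rgs7 (0.717) and Hist1h2bg (0.699), and without the 2 farthest libraries these fell to 0.468, 0.531 and 0.424, so they rested on those libraries.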

How the data were processed

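RNA-Seq of 60 libraries was analysed from 1 deposited table per library. The authors deposited FPKM per gene entry with interval bounds, in the layout of Cufflinks, and no counts. The submitters' processing notes name Trimmomatic 0.30, TopHat2 2.0.14, SAMtools 1.3, HTSeq 0.6.1p1, bcl2fastq 2.20 and GRCm38.p4, and the libraries were rRNA-depleted and directional. For depth, the bounds were used of genes with transcripts of at least 2000 bases and at least 20 fragments.

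Of 47597 entries, 23 not marked OK everywhere were left out. FPKM were scaled by the median ratio over 13235 entries (factors 0.761 to 1.38). Genes whose scaled FPKM averaged 0.5 or more in the 12 libraries compared were tested on log2(scaled FPKM + 0.5) with limma 3.58.1 in R 4.3.3 (trend, labelled sex as covariate, Benjamini-Hochberg adjustment), all groups following the labels. On this scale the fold changes of low genes are understated. The script was tested on simulated data. Correlations used scipy 1.17.1 and pandas 2.3.3.

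The members, the pathway and marker lists and the tests were chosen with earlier results of these data known. Named are all members, Slc17a7, Htt, the 3 genes most like each member (mean scaled FPKM of at least 5), and per list at most the 2 highest and 2 lowest called fold changes. Marker genes are named beside the results they move with. The result of 1 cortical marker is not reported here. Alternatives were the FPKM as deposited, quantile normalization, a pseudocount of 0.1, no filter, no sex covariate, a replicate block, the Slc17a7-defined set as covariate, sex by transcripts (added after seeing the data) and each library left out in turn. Library KO/+ female 3 labelled striatum has a title naming the Δ12 line and a genotype label naming the KO line, and was kept in the KO line. Promoter windows are from RefSeq, GRCm38.p6.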

Additional observations from a re-analysis of the deposited data

Results flagged for a closer look

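Of 80 sets of 6 values (8 genes in 10 labelled groups), 9 had a highest or lowest library that stood far from the other 5, by Dixon's criterion. Chance gives about 1 in 20. In the group Δ12/+ labelled striatum, male 3 stood high for Pde10a (54.6 scaled FPKM), Pde2a (48.7) and Pde7b (23.5). In +/+ of the Δ12 line labelled cortex, male 2 stood high for Pde1a (38.9), male 1 low for Pde4d (11.1) and female 1 low for Pde7b (2.36). The remaining values were Pde8b in KO/+ labelled cortex, female 2 (43.7, high), Pde1a in Δ12/+ labelled cortex, female 2 (31.7, low) and Pde4b in +/+ of the Δ12 line labelled striatum, male 1 (31.7, low).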

How the results depend on the processing

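The count of phosphodiesterases called stayed within 1.5 times in 197 of 212 recomputed counts. A count of 0 that stayed 0 was included as unchanged, and most comparisons had no call. This share therefore says little about the comparisons with calls, which are given next. For KO/+ labelled striatum it was 0 of 8 in place of 6 on the FPKM as deposited, and 5 to 6 with each library left out. For Δ12/Δ12 labelled striatum it was 2 on the FPKM as deposited in place of 4, 0 with no filter, without the sex covariate, with sex by transcripts, with the Slc17a7-defined set as covariate and with the replicate block, and 0 to 6 with each library left out. For Δ12/Δ12 labelled cortex it was 0 to 1 with each library left out, and for Δ12/+ labelled cortex 2 with sex by transcripts. Of all genes, KO/+ labelled striatum had 2.25% called on the FPKM as deposited, against 8.17% in the main fit. Δ12/Δ12 labelled striatum had 28% called on the FPKM as deposited, against 28.7% in the main fit. There, 5.34% were called with no filter and 0.0323% with the replicate block. The cause of these changes in count was not tested.

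Signs turned in 12 of 616 fold changes of the comparisons with calls. With the set as covariate, Δ12/Δ12 labelled striatum gave 0.035 for Pde1a, -0.11 for Pde1b, -0.10 for Pde2a, 0.022 for Pde4b, 0.0001 for Pde4d and -0.29 for Pde7b, and quantile normalization gave 0.22 for Pde4b. Between the lines, Pde4d was at -0.28 (striatum) and -0.16 (cortex) on the FPKM as deposited and at -0.0028 (striatum) without +/+ male 1 of the Δ12 line, and Pde4b at 0.35 and 0.55 with quantile normalization. In the other comparisons 77 of 1064 turned sign and 3 passed the threshold. The FPKM as deposited moved the median of all genes by -0.285 to 0.066, by over 0.1 in 5 of 13 comparisons.

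Same-numbered libraries deviated together little (correlations of deviations from -0.212 to 0.139). Only the comparisons of tissue labels could set a mouse against itself, and these correlations were read in +/+ mice alone. They ran from -0.056 to 0.139 in the KO line and from -0.008 to 0.104 in the Δ12 line. The replicate block changed the count in 1 of 13 comparisons. At these depths the widest deposited interval was that of Pde7b, with a half-width of 46.1% in 1 library.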
